A study of Mus musculus with 8 samples.

Results

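The ubiquitin-specific proteases examined here were the genes whose symbol is Usp followed by a number, with or without a closing x, in a table of RNA levels from mouse 2-cell embryos. Usp15, Usp30 and Usp35 were set aside by the rule that chose the genes, which left 46 USP genes among 38406 gene symbols. The table held 8 libraries of CF-1 embryos, an outbred stock, taken at the late 2-cell stage. The 4 scrambled control libraries came from embryos injected as early 1-cell embryos with a scrambled morpholino, and 4 Med13 morpholino libraries from embryos injected with morpholino oligonucleotides directed at the Med13 transcription start site. Each library was a pool of 40 embryos, and the 4 libraries of a group came from independent collections, so replicates are collections and not single embryos. Whether libraries of the 2 groups shared a collection is not given in the labels. Morpholinos are antisense oligomers that bind RNA and block its use, and MED13 is a subunit of the kinase module of Mediator, the complex that links transcription factors to RNA polymerase II.

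Ubiquitin is a small protein that is joined to other proteins as a single unit or as chains, which mark them for destruction by the proteasome or change their activity. Deubiquitinases cut these marks off, and the USP family is the largest group of them, cysteine proteases that share a catalytic fold and differ in the domains that find their targets. Members act on histones, on p53 and its regulator MDM2, on DNA repair factors, at the proteasome and on receptors in endosomes. The 2-cell embryo of the mouse turns over the proteins and RNAs left by the egg while it starts its own transcription. RNA levels do not give the amount or the activity of the proteases, which were not measured.

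Values are FPKM, fragments per kilobase of transcript scaled to the fragments of the library, summed over the transcript rows of a symbol. Models of 1 gene overlap in their exons, so the sum can hold the same fragment in several rows and grows with the number of models. The library totals read back from the values ran from 33541914 to 48050262 fragments in scrambled libraries and from 31378977 to 45748802 after Med13 morpholino. The 10 most abundant genes held 20.8% of the summed FPKM in scrambled replicate 2 and 13% to 13.8% in the other scrambled libraries, against 16.4% to 17.5% after Med13 morpholino. The mRNA of Med13 stood at 41.3 ± 4.31 and 42.2 ± 2.14 FPKM (n = 4 each, SD; two-sided exact permutation p = 0.629). Morpholinos need not remove the RNA they bind, and the labels are not checked by this value. In pools of embryos, fewer cells of a type and less RNA per cell cannot be told apart.

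Of the 46 USP genes, 40 had a mean of at least 1 FPKM over the 8 libraries and were tested, with limma on log2(FPKM + 1), among 11755 genes. All but Usp25 of the 40 averaged at least 1 FPKM in both groups. Of the 40, 9 passed the test at a Benjamini-Hochberg adjusted p below 0.05, 6 lower and 3 higher after Med13 morpholino, and 31 did not. The share of USP genes that passed was 22.5%, beside 17.1% of all genes tested. By direction, 15% of the USP genes were lower beside 7.81% of all genes, and 7.5% were higher beside 9.29%. These differences in share were not tested. The genes that fell were Usp29, Usp14, Usp10, Usp33, Usp1 and Usp26, and the genes that rose were Usp28, Usp21 and Usp3. On the FPKM + 1 scale, which understates changes of low genes and holds for all folds given below, the changes were moderate. Across the 40 genes, the log2 fold change of FPKM + 1 ran from -0.85 (Usp29) to 0.70 (Usp28), a fold of 0.553 to 1.63. The median was -0.16, beside -0.057 over all genes tested, with 23 USP genes below 0 and 17 above. A further 6 genes, Usp22, Usp36, Usp43, Usp46, Usp53 and Usp9x, had an unadjusted p below 0.05 and did not pass after adjustment.

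**Figure D1:**
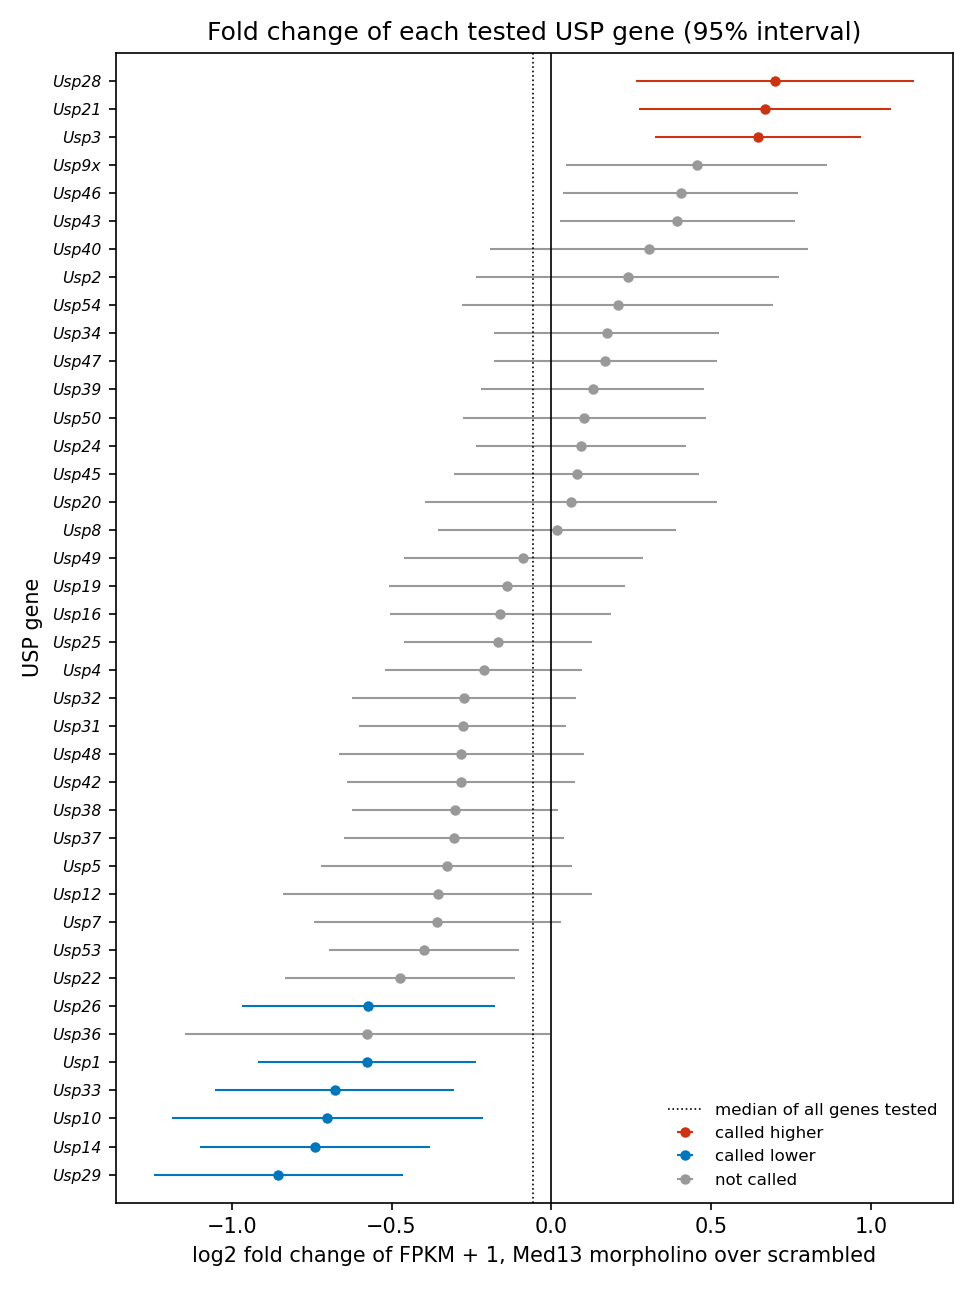
Log2 fold change of FPKM + 1 (x axis, Med13 morpholino over scrambled) for each of the 40 tested USP genes (y axis), with 95% intervals from limma, 4 libraries per group. The 6 genes called lower are blue, the 3 called higher are red, and the dotted line is the median of all 11755 genes tested, -0.057. Genes that were not called are grey, and the intervals of the 6 among them with an unadjusted p below 0.05 leave out 0.

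The counts depended on single libraries and on the fit. Against 6 genes lower with all libraries, the count was 3 without scrambled replicate 1, 3 without scrambled replicate 3, 3 without scrambled replicate 4 and 2 without Med13 morpholino replicate 2. Against 3 genes higher, it was 1 without scrambled replicate 3 and 1 without Med13 morpholino replicate 1. With no filter on low values, 1 gene was higher and 2 were lower, and with sample weights 3 were higher and 15 lower. Over all genes, 1012 of 34976 were called with no filter and 4336 of 11755 with sample weights, against 2010 of 11755. Leaving out 1 library gave 975 to 2406 of all genes called. In 11 of the 40 genes (27.5%) the groups did not overlap, 7 lower and 4 higher, beside 21.6% of all genes tested. Summed over all 46 genes, USP transcripts came to 881, 725, 923 and 898 FPKM in scrambled replicates 1 to 4 and 717, 678, 721 and 788 FPKM in Med13 morpholino replicates 1 to 4. The groups overlapped in that sum, through scrambled replicate 2. With only the most abundant row of each gene, the sum was 306 ± 13.9 FPKM in scrambled libraries. After Med13 morpholino that sum was 261 ± 15.1 FPKM (n = 4 each, SD), without overlap.

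Libraries of a group did not all lie alike. Relative to the mean of the scrambled libraries, the median deviation of the 40 tested genes in log2(FPKM + 1) was -0.28 in scrambled replicate 2, where 34 of 40 genes lay below that mean, and 0.039 to 0.11 in the other scrambled libraries. After Med13 morpholino it was -0.21, -0.26, -0.11 and 0.0063 in replicates 1 to 4. By this median, scrambled replicate 2 lay lowest of the 8 libraries. By summed USP level, 725 FPKM, it lay above Med13 morpholino replicates 1, 2 and 3.

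**Figure D2:**
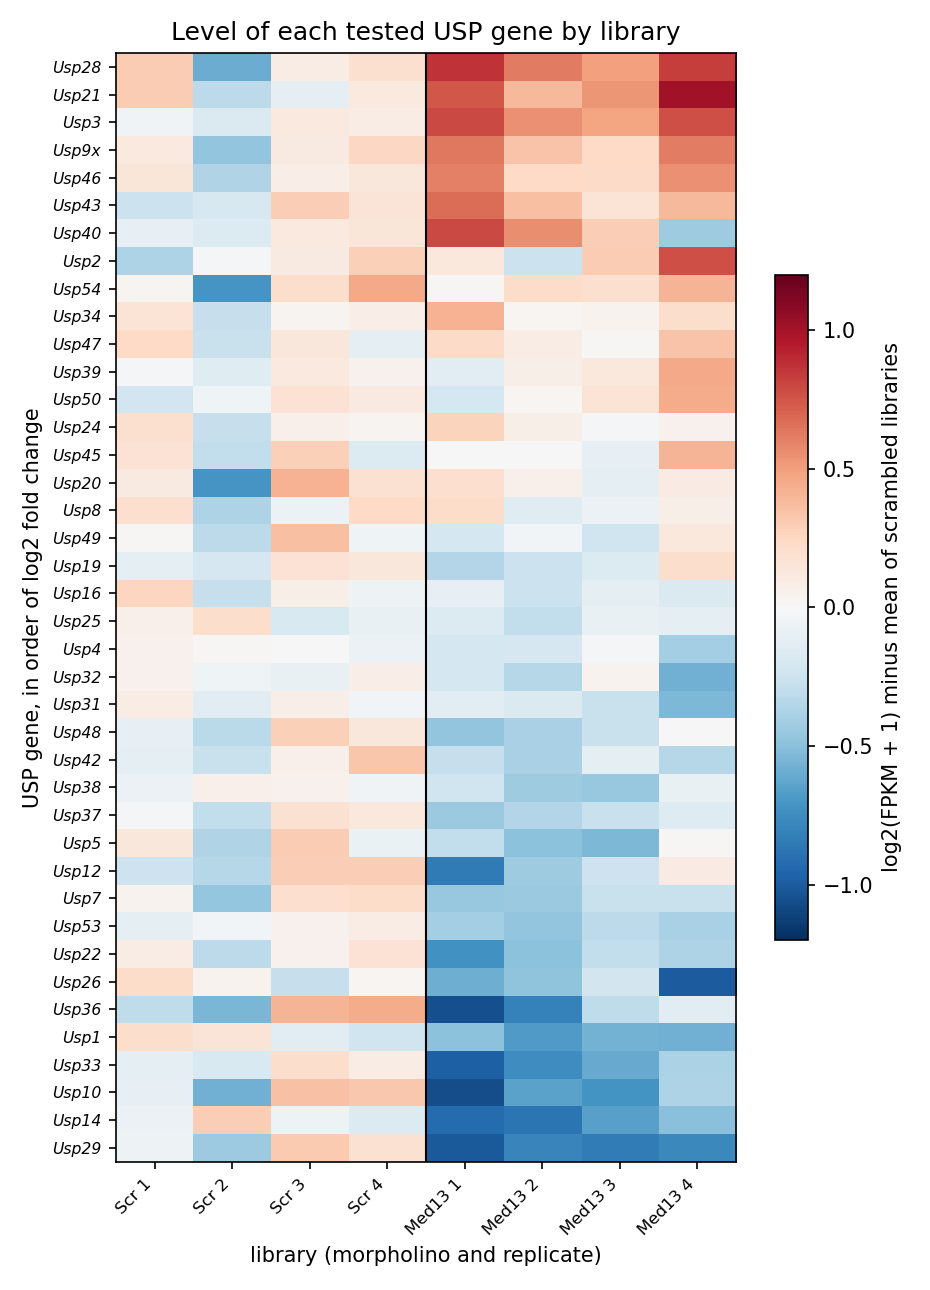
Each row is 1 of the 40 tested USP genes, in order of log2 fold change, and each column 1 of the 8 libraries. Colour gives log2(FPKM + 1) minus the mean of the 4 scrambled libraries, red above and blue below. The top and bottom rows change at the line between the groups, and scrambled replicate 2 is blue in 34 of 40 rows.

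Other RNA moved with the groups beside the USP genes. The summed level of 10 oocyte markers was 98.4 to 122.7 FPKM in scrambled libraries and 333.0 to 424.4 FPKM after Med13 morpholino, and that of 10 markers of the 2-cell stage was 198 to 269.9 and 302 to 438 FPKM. Neither sum overlapped between the groups. The largest part of the oocyte sum was Oosp1, at 38.9 ± 7.67 and 189 ± 16.4 FPKM (n = 4 each, SD). Of the oocyte markers, 9 were tested, 6 rose and 3 were not called. Their log2 fold changes were above 0 in 8 and below 0 in 1, Npm2 (-0.44, limma adjusted p = 0.0873). Of the 2-cell markers, 7 rose and 2 fell. Zfp352 rose from 38.7 ± 10.9 to 123 ± 26.3 FPKM (n = 4 each, SD), and Dppa2 fell from 84.1 ± 15.7 to 44.6 ± 6.46 FPKM (n = 4 each, SD; limma adjusted p = 0.00101 and 0.00590). The other that fell was Eif1a (log2 fold change -0.63, adjusted p = 0.0205). All 10 markers of the 2-cell stage averaged at least 1 FPKM, and 1 oocyte marker, Mos, averaged under 1 FPKM. Their part in the USP differences was not tested. Of 10 cumulus cell markers, 9 averaged under 1 FPKM, and Amhr2 stood at 12.8 ± 2.82 and 13.4 ± 2.14 FPKM (n = 4 each, SD). Sperm markers summed to 5.57 to 12.5 and 12.4 to 18.5 FPKM, nearly all from Odf2, which stood at 9.497 ± 2.78 and 15.4 ± 3.13 FPKM (n = 4 each, SD) without overlap and did not pass (adjusted p = 0.0586), with the protamine genes Prm1 and Prm2 under 1 FPKM. Blood and immune markers summed to 3.36 to 8.02 and 4.07 to 5.94 FPKM, and oviduct markers to 32.3 to 43.2 and 37.2 to 43.6 FPKM. These 3 sums overlapped between the groups, and so did that of the cumulus markers (10.9 to 16.0 and 12.5 to 16.8 FPKM). The oviduct sum was mostly Epcam, at 23.5 ± 5.65 and 29.5 ± 3.44 FPKM (n = 4 each, SD). Ovgp1, the oviduct glycoprotein, fell from 3.49 ± 0.679 to 2.18 ± 0.189 FPKM (n = 4 each, SD) without overlap (adjusted p = 0.0440). The part of these markers in the USP differences was not tested either.

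Several USP proteases remove ubiquitin from histones H2A and H2B, a mark laid down by Polycomb and by the transcription machinery. Of the 46 genes, 8 are of this kind, 5 were tested, and 2 rose, Usp3 and Usp21, beside 9.29% of all genes higher. In groups of this size 1 gene is a large share, and no group was tested against other genes. Usp3, which acts on H2A and takes part in the DNA damage response (ENSMUSG00000032376, chromosome 9, 66514637 to 66593142, minus strand, GRCm38), had 3.32, 2.94, 3.82 and 3.73 FPKM in scrambled replicates 1 to 4 and 6.69, 5.48, 5.17 and 6.60 FPKM in Med13 morpholino replicates 1 to 4. Every Med13 morpholino library was above every scrambled library, a 1.57-fold difference on the FPKM + 1 scale (limma adjusted p = 0.0131 for a log2 fold change of 0.65 ± 0.15 SE). Usp21, an H2A deubiquitinase (ENSMUSG00000053483, chromosome 1, 171281945 to 171287991, minus strand), had 2.60, 1.36, 1.72 and 2.17 FPKM in scrambled replicates 1 to 4 and 3.89, 2.84, 3.23 and 4.90 FPKM in Med13 morpholino replicates 1 to 4. Its groups did not overlap either (1.59-fold, limma adjusted p = 0.0264 for a log2 fold change of 0.67 ± 0.18 SE). It was a low gene, with at least 93 fragments in each library, added up over 12 transcript rows. The Usp21 call did not hold with no filter (0.0843), nor without scrambled replicate 3 (0.0701), Med13 morpholino replicate 1 (0.0657) and Med13 morpholino replicate 4 (0.0559), with the adjusted p in parentheses here and for the other genes. The Usp3 call held in each of the 14 alternatives in which the gene had a value.

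Usp22, the deubiquitinase of the SAGA coactivator, did not pass. It had 21.03, 15.7, 20.501 and 22.5 FPKM in the scrambled libraries and 11.5, 13.7, 15.9 and 15.03 FPKM in the Med13 morpholino libraries (limma adjusted p = 0.0674 for a log2 fold change of -0.47 ± 0.17 SE). The groups overlapped only between scrambled replicate 2 and Med13 morpholino replicate 3, and without scrambled replicate 2 the gene was called (adjusted p = 0.0240). It was also called with median-ratio scaling, quantile normalization and sample weights (0.0331, 0.0406 and 0.00647). Usp16, which removes ubiquitin from H2A, had the highest summed level of the family, 174, 119, 152 and 139 FPKM in the scrambled libraries and 135, 121, 134 and 128 FPKM in the Med13 morpholino libraries. The groups overlapped, and the 95% interval of its log2 fold change was -0.51 to 0.19. It has 11 transcript models, and by its most abundant row alone, 27.8 FPKM, it was the fourth, after Usp38, Usp1 and Usp9x. Usp49, an H2B deubiquitinase, ranged over 4.18 to 7.27 and 4.47 to 6.05 FPKM in scrambled and Med13 morpholino libraries (log2 fold change -0.088), and 52.3% of its exonic bases lie in other gene models, chiefly Gm20517, so its value is uncertain. Usp27x and Usp51, relatives of Usp22, and Usp44, which also guards the mitotic checkpoint, were under the minimum for testing, with 0.579, 0.318 and 0.322 FPKM on average over the 8 libraries.

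The 3 genes that rose are shown with reference sequence from before their starts, beside Usp29, the gene with the largest fall. The sequences are RefSeq windows of build GRCm38.p6 from 250 to 51 bases before the annotated start, written 5′ to 3′ on the strand of the gene. For Usp29 the stretch starts after the last exonic base of Peg3, an imprinted gene transcribed away from Usp29. Capitals mark GGGCGG (the GC box) and CCAAT (the CCAAT box) on either strand.
Usp3, chr9:66593166-66593365, minus strand: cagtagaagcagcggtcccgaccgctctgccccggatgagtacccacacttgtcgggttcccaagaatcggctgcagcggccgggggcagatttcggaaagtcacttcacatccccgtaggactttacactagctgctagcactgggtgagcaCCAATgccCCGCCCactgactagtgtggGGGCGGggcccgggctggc
Usp21, chr1:171288012-171288211, minus strand: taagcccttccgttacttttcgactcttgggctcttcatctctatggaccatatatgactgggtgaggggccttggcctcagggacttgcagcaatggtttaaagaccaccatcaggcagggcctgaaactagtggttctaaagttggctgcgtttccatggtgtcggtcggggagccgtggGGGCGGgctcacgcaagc
Usp28, chr9:48985135-48985334, plus strand: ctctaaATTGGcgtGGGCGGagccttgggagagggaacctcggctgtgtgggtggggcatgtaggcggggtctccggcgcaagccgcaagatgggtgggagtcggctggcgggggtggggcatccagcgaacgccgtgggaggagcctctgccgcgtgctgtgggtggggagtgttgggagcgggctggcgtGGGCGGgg
Usp29, chr7:6730432-6730532, plus strand: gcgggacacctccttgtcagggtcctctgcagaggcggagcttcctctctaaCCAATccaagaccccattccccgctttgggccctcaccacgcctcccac
The 200-base windows of Usp3, Usp21 and Usp28 held 2, 1 and 2 GC boxes. Those of Usp29, Usp10 and Usp26, the 3 genes that fell and had a window, held 0. This difference was not tested, and Usp14, Usp33 and Usp1, which also fell, had no window. Of 34 USP genes with a window, 18 (52.9%) had at least 1 GC box, beside 24.6% of 32851 windows of the same length over all genes. Those 32851 windows were not limited to the genes tested here. CCAAT occurred in 7 of the 34 (20.6%) beside 28.4% of all windows. Of 3 further motifs searched on both strands, the E-box CACGTG occurred in 2.94% of the USP windows beside 4.34% of all, TATAAA in 5.88% beside 9.14%, and the CRE motif TGACGTCA in 0 beside 0.828%. The median GC content was 64.5% in the USP windows and 51.5% in all windows, and GC boxes are made only of G and C. Among the 31 tested genes that were not called and the 6 not tested, windows with and without a GC box both occurred. A match to these letters is a description and not a binding site.

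USP1, USP12 and USP46 are switched on by the WD40 protein UAF1, the product of Wdr48. Of these 3 genes 1 fell, beside 7.81% of all genes lower. Usp1, which takes ubiquitin off the repair factors FANCD2 and PCNA, fell (ENSMUSG00000028560, chromosome 4, 98923810 to 98935543, plus strand). It had 95.3, 91.5, 74.7 and 69.2 FPKM in scrambled replicates 1 to 4 and 58.0, 50.9, 55.0 and 54.7 FPKM in Med13 morpholino replicates 1 to 4. Every Med13 morpholino library was below every scrambled library (0.670-fold, limma adjusted p = 0.0266 for a log2 fold change of -0.58 ± 0.16 SE), and the Med13 morpholino libraries lay closer together than the scrambled ones. Of its 50-base words, 21.4% also occur in the pseudogene Gm5841. This call could be lost through the choice of scaling or filter, with no filter (0.0645) and median-ratio scaling (0.0602), and through single libraries, without scrambled replicate 1 (0.0728), scrambled replicate 3 (0.0542), Med13 morpholino replicate 2 (0.0906) and Med13 morpholino replicate 3 (0.0653).

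Usp46 and Usp12 encode close relatives, and neither passed. Usp46 had 5.01, 3.21, 4.73 and 4.94 FPKM in the scrambled libraries and 7.22, 5.38, 5.34 and 6.94 FPKM in the Med13 morpholino libraries, without overlap (limma adjusted p = 0.120 for a log2 fold change of 0.40 ± 0.17 SE). Scrambled replicate 2 was the lowest library. Usp12 had 5.04, 4.67, 7.81 and 7.84 FPKM in the scrambled libraries and 2.99, 4.35, 5.05 and 6.70 FPKM in the Med13 morpholino libraries, with overlap (limma adjusted p = 0.291 for a log2 fold change of -0.36 ± 0.22 SE). Wdr48 stood at 6.27 ± 1.63 and 5.05 ± 0.606 FPKM (n = 4 each, SD), and Wdr20, a further activator of both proteases, at 30.8 ± 6.49 and 26.2 ± 6.004 FPKM (n = 4 each, SD). Neither passed the test.

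Of 6 genes linked to p53, MDM2 and DNA damage, Usp28 rose and Usp10 fell, beside 17.1% of all genes called. Usp28, which stabilises MYC and binds the damage factor 53BP1 (ENSMUSG00000032267, chromosome 9, 48985375 to 49042517, plus strand), had 5.02, 2.23, 4.19 and 4.58 FPKM in scrambled replicates 1 to 4 and 7.89, 6.49, 5.84 and 7.63 FPKM in Med13 morpholino replicates 1 to 4. The groups did not overlap, with scrambled replicate 2 lowest (1.63-fold, limma adjusted p = 0.0320 for a log2 fold change of 0.70 ± 0.20 SE). The log2 fold change was 0.50 without that library, and the gene was still called (0.0380). It was not called with no filter (0.104) or without scrambled replicate 3 (0.059992), Med13 morpholino replicate 1 (0.0824), Med13 morpholino replicate 2 (0.0725) and Med13 morpholino replicate 4 (0.0582). Usp25, its closest relative, had a mean of 1.13 ± 0.260 and 0.892 ± 0.114 FPKM (n = 4 each, SD) and was not called (log2 fold change -0.17). The difference between the relatives was not tested.

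Usp10, which acts on p53 and is held in stress granule complexes by G3BP proteins (ENSMUSG00000031826, chromosome 8, 119910360 to 119957560, plus strand), had 30.7, 21.8, 42.4 and 41.4 FPKM in scrambled replicates 1 to 4 and 15.2, 20.7, 19.6 and 25.3 FPKM in Med13 morpholino replicates 1 to 4. Scrambled replicate 2 lay among the Med13 morpholino libraries and the other scrambled libraries lay above them (0.615-fold, limma adjusted p = 0.0492 for a log2 fold change of -0.70 ± 0.22 SE). The call stood at the edge of the threshold. It was lost without scrambled replicate 1 (0.0805), scrambled replicate 3 (0.139), scrambled replicate 4 (0.124), Med13 morpholino replicate 1 (0.121), Med13 morpholino replicate 2 (0.104) and Med13 morpholino replicate 3 (0.104), and with a pseudocount of 0.1 (0.0526), no filter (0.150), the most abundant transcript row alone (0.111) and the moved rows realigned (0.0503). G3bp1 and G3bp2 stood at 14.0 ± 0.851 and 13.3 ± 2.18 FPKM (n = 4 each, SD) and at 75.1 ± 12.9 and 53.8 ± 5.93 FPKM (n = 4 each, SD), and neither passed.

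Usp7, the protease of MDM2, p53 and the DNA methyltransferase DNMT1, was among the 5 most abundant members by summed FPKM, with 54.7, 38.1, 61.0 and 61.9 FPKM in the scrambled libraries and 38.4, 38.6, 44.0 and 44.0 FPKM in the Med13 morpholino libraries. Scrambled replicate 2 lay below all 4 Med13 morpholino libraries and the other scrambled libraries lay above them (limma adjusted p = 0.186 for a log2 fold change of -0.36 ± 0.18 SE). Without scrambled replicate 2 it was called (log2 fold change -0.51, adjusted p = 0.0315), and also with sample weights (0.00844). Usp48, Usp24 and Usp45 were not called, with log2 fold changes of -0.28, 0.093 and 0.079.

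Of 2 tested genes of the proteasome and ubiquitin recycling, Usp14 fell, beside 7.81% of all genes lower. USP14 sits on the regulatory particle and trims ubiquitin chains from proteins about to be degraded (ENSMUSG00000047879, chromosome 18, 9993066 to 10045119, minus strand). It had 28.3, 37.0, 28.6 and 26.5 FPKM in scrambled replicates 1 to 4 and 15.2, 15.8, 18.7 and 20.8 FPKM in Med13 morpholino replicates 1 to 4. The groups did not overlap (0.599-fold, limma adjusted p = 0.0117 for a log2 fold change of -0.74 ± 0.17 SE), and the call held without any 1 library. It was lost with the most abundant transcript row alone (0.170). That row is a retained intron model of 656 bases, and 26.0% of the exonic bases of Usp14 lie in exons of Thoc1 on the other strand. The protein-coding rows of 2019 and 4726 bases fell by themselves, from 6.74 ± 0.774 to 3.92 ± 0.932 FPKM and from 6.61 ± 0.718 to 4.04 ± 0.780 FPKM (n = 4 each, SD; limma adjusted p = 0.0196 and 0.0226 over all transcript rows). Usp5, which takes apart free ubiquitin chains, ranged over 1.79 to 3.41 and 1.46 to 2.60 FPKM in scrambled and Med13 morpholino libraries and was not called (log2 fold change -0.33). Its relative Usp13 averaged 0.224 FPKM and was not tested.

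Of 5 genes for endosomes, the endoplasmic reticulum and membrane traffic, Usp33 fell, beside 7.81% of all genes lower. USP33 acts on receptors and on centrosome and signalling proteins and is a target of the VHL ligase (ENSMUSG00000025437, chromosome 3, 152346478 to 152393617, plus strand). It had 42.1, 40.2, 53.1 and 48.7 FPKM in scrambled replicates 1 to 4 and 22.7, 26.9, 29.7 and 34.9 FPKM in Med13 morpholino replicates 1 to 4. All Med13 morpholino libraries were below all scrambled libraries (0.625-fold, limma adjusted p = 0.0195 for a log2 fold change of -0.68 ± 0.17 SE). The Usp33 call did not hold with no filter (0.0584), nor without scrambled replicate 3 (0.0675), scrambled replicate 4 (0.0502) and Med13 morpholino replicate 2 (0.0658). Models of uncharacterised genes on the other strand cover 24.4% of its exonic bases. Usp20, its closest relative, was near the minimum for testing, with 1.17, 0.236, 1.68 and 1.28 FPKM in the scrambled libraries and 1.31, 1.09, 0.862 and 1.15 FPKM in the Med13 morpholino libraries, and its direction turned without scrambled replicate 2 (log2 fold change 0.06 with it and -0.17 without it). Usp8, which works with the ESCRT machinery on endosomes, stood at 5.07 ± 1.14 and 5.09 ± 0.689 FPKM (n = 4 each, SD), with a 95% interval of -0.36 to 0.39 for the log2 fold change. Usp19 and Usp32 were not called (-0.14 and -0.27).

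Of 5 genes grouped as germline, imprinted or retrotransposed, Usp29 and Usp26 fell, beside the same 7.81%. The largest fall among the 40 tested genes was in Usp29, a paternally expressed imprinted gene beside Peg3 (ENSMUSG00000051527, chromosome 7, 6730578 to 6967219, plus strand). It had 45.1, 34.6, 59.1 and 53.8 FPKM in scrambled replicates 1 to 4 and 23.0, 26.8, 26.0 and 27.2 FPKM in Med13 morpholino replicates 1 to 4. The 4 Med13 morpholino values lay within 23.0 to 27.2 FPKM and below all scrambled values, of which replicate 2 was the lowest (0.553-fold, limma adjusted p = 0.00847 for a log2 fold change of -0.85 ± 0.18 SE). The call held in all 16 alternatives, with log2 fold changes from -0.9996 to -0.75 and adjusted p up to 0.035. Exons of other genes, Zim3 on the other strand among them, share 14.8% of its exonic bases.

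Usp26, an X-linked gene known from testis, is a low gene, with 3.23, 2.73, 1.997 and 2.68 FPKM in scrambled replicates 1 to 4 and 1.42, 1.60, 2.13 and 0.813 FPKM in Med13 morpholino replicates 1 to 4. Med13 morpholino replicate 3 lay above scrambled replicate 3, and the other libraries parted by group (0.673-fold, limma adjusted p = 0.0483 for a log2 fold change of -0.57 ± 0.18 SE). The call held in 3 of 15 alternatives. It was lost without scrambled replicate 1 (0.114), scrambled replicate 2 (0.0646), scrambled replicate 4 (0.0892), Med13 morpholino replicate 1 (0.0986), Med13 morpholino replicate 2 (0.0940) and Med13 morpholino replicate 4 (0.105), and with a pseudocount of 0.1 (0.0548), no filter (0.135), median-ratio scaling (0.0757), quantile normalization (0.0606), the most abundant transcript row alone (0.0751) and sample weights (0.0605). Usp42, Usp43 and Usp50 were not called. Usp42 ranged over 10.7 to 16.7 and 9.73 to 11.9 FPKM, Usp43 over 0.808 to 1.64 and 1.41 to 2.44 FPKM and Usp50 over 18.2 to 24.4 and 18.4 to 29.6 FPKM in scrambled and Med13 morpholino libraries. Exonic bases of Usp50 and Usp43 are also shared with other gene models (6.57% and 12.8%).

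**Figure D3:**
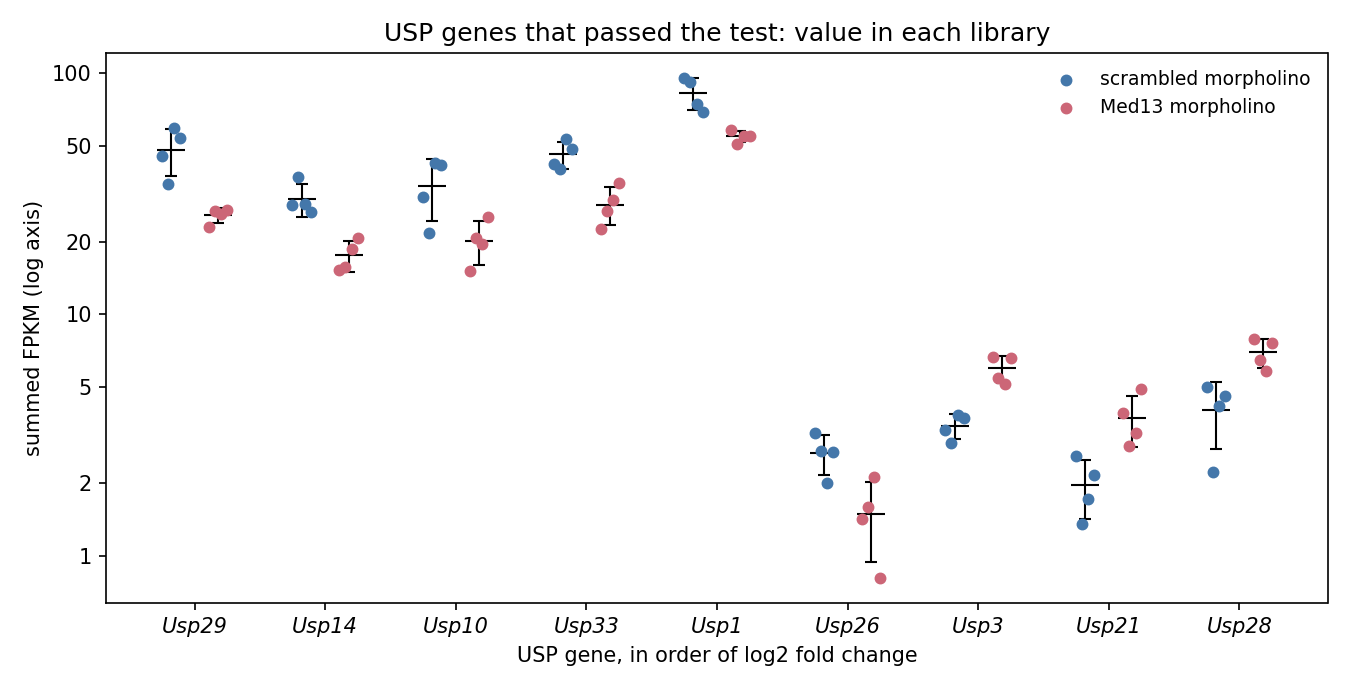
Summed FPKM (log axis) of the 9 USP genes that passed the test in each of the 4 scrambled (blue) and 4 Med13 morpholino (red) libraries, in order of log2 fold change. Long dashes are means and bars 1 SD. The groups overlap in Usp10 and Usp26 and part in the other 7 genes, and the 3 genes that rose stand at 1.36 to 7.89 FPKM.

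By summed level, the 3 genes that rose ranked 25 (Usp28), 31 (Usp3) and 34 (Usp21) of the 46, and the 6 that fell ranked 3 (Usp1), 6 (Usp33), 7 (Usp29), 10 (Usp10), 11 (Usp14) and 37 (Usp26). The order depended on the number of rows. By the most abundant row, Usp28, with 1 row, stood at 5.48 FPKM (rank 16) and Usp10, with 11 rows, at 5.42 FPKM (rank 17). With the minimum raised to a mean of 5 FPKM, 29 USP genes were tested, and 1 rose (Usp28) and 5 fell. In the same fit, 1137 of all 5535 genes tested were called.

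Among 8 genes of signalling, growth and adhesion, 7 were tested and limma called 0, beside 17.1% of all genes called. Of the 7, 2 had an unadjusted p below 0.05, Usp53 and Usp9x. Usp9x, a large X-linked deubiquitinase and the second most abundant member by summed FPKM, had 67.4, 44.2, 66.8 and 73.9 FPKM in the scrambled libraries and 96.5, 78.7, 73.4 and 95.1 FPKM in the Med13 morpholino libraries (limma adjusted p = 0.114 for a log2 fold change of 0.46 ± 0.19 SE). Scrambled replicate 2 was the lowest library, and scrambled replicate 4 lay just above Med13 morpholino replicate 3. With median-ratio scaling it was called higher (0.0471). Usp53, linked to cell junctions, had 14.8, 15.6, 16.7 and 17.1 FPKM in the scrambled libraries and 11.8, 11.3, 12.7 and 12.0 FPKM in the Med13 morpholino libraries. Its groups did not overlap, and its libraries lay close together within each group (limma adjusted p = 0.0652 for a log2 fold change of -0.40 ± 0.14 SE). With sample weights Usp53 was called lower (0.00914). Usp34, which acts on the Wnt scaffold axin, ranged over 24.8 to 34.0 and 30.8 to 40.9 FPKM in the 2 groups (log2 fold change 0.17), and 11.6% of its exonic bases lie in Ahsa2 on the other strand. Usp47, Usp54 and Usp2 were not called (0.17, 0.21 and 0.24). Usp11 was below the minimum and untested, with 0.592, 0.530, 0.715 and 0.718 FPKM in the scrambled libraries and 1.14, 1.24, 0.858 and 1.72 FPKM in the Med13 morpholino libraries, and its groups did not overlap.

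The remaining members were not called. Usp37, which stabilises cyclin A, had 40.7, 33.3, 46.9 and 45.2 FPKM in the scrambled libraries and 30.03, 32.2, 34.0 and 36.8 FPKM in the Med13 morpholino libraries (limma adjusted p = 0.206 for a log2 fold change of -0.30 ± 0.16 SE). Usp36, the nucleolar member, ranged over 12.5 to 25.8 and 8.48 to 17.0 FPKM in scrambled and Med13 morpholino libraries, with scrambled replicates 1 and 2 among the Med13 morpholino values (log2 fold change -0.58, adjusted p = 0.152). Usp38 had 36.8, 40.3, 40.0 and 37.6 FPKM in the scrambled libraries and 32.7, 28.5, 28.0 and 36.4 FPKM in the Med13 morpholino libraries and Usp31 8.34, 7.07, 8.21 and 7.61 FPKM in the scrambled libraries and 7.04, 6.81, 6.29 and 5.05 FPKM in the Med13 morpholino libraries. In both genes every Med13 morpholino library lay below every scrambled library, with small differences (log2 fold changes -0.30 and -0.28, adjusted p = 0.182 and 0.219). A model on the other strand, Gm9725, covers 20.47% of the exonic bases of Usp38. Usp40 had 4.02, 3.77, 4.80 and 4.92 FPKM in the scrambled libraries and 8.27, 6.89, 5.58 and 2.996 FPKM in the Med13 morpholino libraries, highest in 3 Med13 morpholino libraries and lowest in the other, replicate 4, without which it was called (adjusted p = 0.0487). Of the splicing members, Usp4, which works with SART3 on snRNPs, ranged over 7.87 to 8.62 and 6.01 to 8.13 FPKM and Usp39, an inactive family member of the tri-snRNP, over 6.26 to 7.73 and 6.33 to 10.03 FPKM. Usp18, which removes the ubiquitin-like ISG15, was at 0 in scrambled replicate 1 and Med13 morpholino replicate 1 and at most 0.302 FPKM in the others.

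The fit was repeated on single transcript models. The 46 genes had 290 transcript rows, of which 138 had a mean of at least 1 FPKM and were fitted among 21052 rows. Of these, 20 (14.5%) were called, 18 lower and 2 higher, beside 15.7% of all rows, with 7.57% of all rows lower and 8.17% higher. They belonged to 9 genes, and 0 genes had rows called in both directions. Against 18 rows lower with all libraries, the count was 9 without scrambled replicate 1, 33 without scrambled replicate 2, 6 without scrambled replicate 3, 11 without scrambled replicate 4, 9 without Med13 morpholino replicate 1, 4 without Med13 morpholino replicate 2 and 8 without Med13 morpholino replicate 3. The 2 rows higher became 0 or 1 without each single library other than scrambled replicate 4. All 4 rows of Usp29 fell, and so did 3 of 4 in Usp1, 3 of 6 in Usp14, 4 of 9 in Usp33 and 2 of 8 in Usp10. Rows of a gene share exons and fragments, so they are not independent.

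For Usp29 the most abundant row, a model of 4420 bases, went from 17.9 ± 2.40 to 9.54 ± 0.482 FPKM (log2 fold change -0.83, limma adjusted p = 0.00438), and it held 37.1% of the summed level in both groups. The next rows, of 2610 and 7540 bases, fell by similar amounts (log2 fold changes -0.76 and -0.78). For Usp1 the rows of 3527 and 3577 bases fell from 35.2 ± 6.35 to 23.2 ± 1.75 FPKM and from 34.7 ± 6.16 to 23.0 ± 1.74 FPKM, and the row of 546 bases was not called (adjusted p = 0.0581). For Usp33 the rows of 3886, 4153 and 4183 bases fell with log2 fold changes of -0.70, -0.62 and -0.63. In Usp10 the protein-coding rows of 3274 and 3726 bases did not pass (-0.55 and -0.56, adjusted p = 0.109 and 0.0859). A partial coding model of 424 bases fell from 5.06 ± 1.58 to 2.06 ± 0.402 FPKM (log2 fold change -0.96, limma adjusted p = 0.00635), and its share of the summed level went from 14.8% to 10.2%.

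Usp28 has 1 row in the table, which is its gene value. No row of Usp3 or Usp21 reached the minimum, and their levels were spread over 11 and 12 rows. The most abundant row of Usp3, of 5607 bases, stood at 0.644 ± 0.139 and 0.862 ± 0.0525 FPKM and the next, of 2797 bases, at 0.375 ± 0.137 and 0.898 ± 0.205 FPKM (n = 4 each, SD). In both rows the Med13 morpholino libraries lay above the scrambled ones. The 3 most abundant rows of Usp21 stood at 0.379 ± 0.129 and 0.740 ± 0.235 FPKM, 0.326 ± 0.0806 and 0.616 ± 0.195 FPKM and 0.322 ± 0.17996 and 0.610 ± 0.0837 FPKM, with overlap between the groups in each. Retained intron rows were called in 3 genes that were not. They were a 753-base row of Usp19 (log2 fold change -0.47, limma adjusted p = 0.0432), a 3407-base row of Usp53 (log2 fold change -0.66, limma adjusted p = 0.0381) and an 820-base row of Usp9x (log2 fold change 0.57, limma adjusted p = 0.0448). Protein-coding rows made up 63.6% to 65.3% of the summed USP level in the scrambled libraries and 63.4% to 65.7% after Med13 morpholino, and retained intron rows 19.6% to 20.6% and 19.5% to 20.1%.

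**Figure D4:**
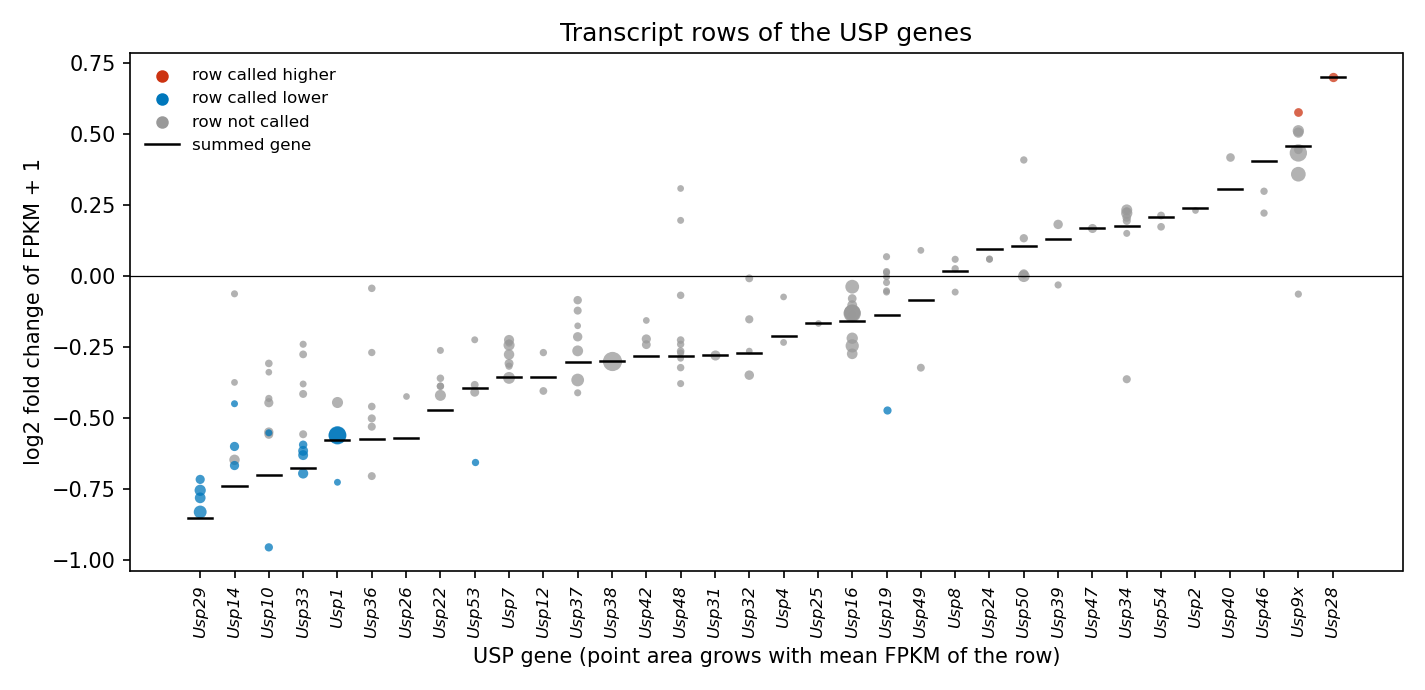
Log2 fold change of FPKM + 1 (y axis) for the 138 tested transcript rows of the USP genes (points, with area growing with mean FPKM), by gene (x axis), and of the summed gene (bars). The 18 rows called lower lie in Usp29, Usp14, Usp10, Usp33, Usp1, Usp19 and Usp53, and the 2 called higher in Usp9x and Usp28.

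Of 13 tested cofactors, 1 fell, Atxn7, which ties the USP22 module to SAGA, with 14.6, 10.8, 15.2 and 13.4 FPKM in the scrambled libraries and 6.12, 6.59, 7.24 and 7.38 FPKM in the Med13 morpholino libraries and no overlap (limma adjusted p = 0.00322 for a log2 fold change of -0.88 ± 0.15 SE). That was 7.69% called, beside 17.1% of all genes, and the median log2 fold change of the cofactors was -0.12. The other SAGA module genes Atxn7l3 and Eny2 stood at 4.97 ± 1.40 and 5.63 ± 1.77 FPKM (n = 4 each, SD) and at 8.38 ± 1.73 and 7.61 ± 1.35 FPKM (n = 4 each, SD), and neither passed. In the other deubiquitinase families, 29 genes were tested, 2 rose and 3 fell, 17.2% beside 17.1% of all genes, with a median of -0.16.

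Within those families Otud1 had the largest fall, with 10.4, 12.5, 7.74 and 6.77 FPKM in the scrambled libraries and 3.15, 2.49, 2.98 and 3.47 FPKM in the Med13 morpholino libraries (limma adjusted p = 9.65e-04 for a log2 fold change of -1.34 ± 0.19 SE). Otulin, which cuts linear ubiquitin chains, went from 6.66 ± 1.54 to 2.83 ± 1.29 FPKM (n = 4 each, SD; limma adjusted p = 0.0153 for a log2 fold change of -1.05 ± 0.25 SE). Mysm1, a metalloprotease that removes ubiquitin from H2A, went from 23.0 ± 3.89 to 13.9 ± 2.03 FPKM (n = 4 each, SD; limma adjusted p = 0.0177 for a log2 fold change of -0.68 ± 0.17 SE), a call lost with no filter (0.0528) and the most abundant transcript row alone (0.0880) and without scrambled replicate 3 (0.0625) and Med13 morpholino replicate 2 (0.0691). The 2 that rose were Fam63a, which encodes the chain-trimming protease MINDY1, from 8.67 ± 2.03 to 24.1 ± 6.01 FPKM (n = 4 each, SD; limma adjusted p = 0.00141 for a log2 fold change of 1.37 ± 0.21 SE), and Uchl1, a small ubiquitin hydrolase abundant in oocytes, from 5.23 ± 2.22 to 10.6 ± 1.64 FPKM (n = 4 each, SD; limma adjusted p = 0.0166 for a log2 fold change of 0.96 ± 0.23 SE). The Uchl1 call did not hold with no filter (0.0724), nor without scrambled replicate 3 (0.05001), and the Otulin call with no filter (0.0722). Of 4 listed USP-fold genes whose symbols do not follow the family pattern, Cyld, Uspl1 and Pan2 were tested. In that list limma called 0 of 3, with 0 at an unadjusted p below 0.05. The list left out Usp17la, a further USP gene outside the pattern, which was counted above with the 2-cell markers. Usp17la rose from 1.90 ± 0.739 to 3.99 ± 1.06 FPKM without overlap (n = 4 each, SD; limma adjusted p = 0.0276). Of 6 ubiquitin precursor and E1 enzyme genes, limma called 0, with 2 at an unadjusted p below 0.05. Both lists are small and stand beside 17.1% of all genes called. Ubb stood at 69.3 ± 6.45 and 102 ± 29.6 FPKM (n = 4 each, SD) and Uba6 at 6.78 ± 1.56 and 4.41 ± 0.562 FPKM (n = 4 each, SD).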

How the data were processed

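RNA was measured in 8 libraries, 4 per group, each from 40 pooled embryos and amplified before library preparation, per the labels' protocols. The deposited values are FPKM per Ensembl transcript, which the authors computed from reads handled with BWA on mm10, per the submitters' processing notes. The sources used here give no version, counting tool, annotation release or strandedness. The libraries have no stated batch or molecular identifiers.

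In 3758 of 97496 rows, those whose symbol holds a hyphen, values are moved by 1 column. They were left out, and 0 USP rows were among them. Rows were summed by symbol. Genes averaging at least 1 FPKM over the 8 libraries were tested as log2(FPKM + 1), which understates changes of low genes, with limma 3.58.1 in R 4.3.3 (trend in the variance prior, no covariates, two-sided tests, a Benjamini-Hochberg threshold of 0.05), and transcript rows likewise. Of low values, 94.1% to 94.3% were multiples of 0.5 fragments (within 0.005, up to 20 fragments), which gave the library totals. Lengths, biotypes, coordinates and shared exons came from GENCODE M21 (GRCm38, the assembly of mm10), which matched 98.7% of rows, and shared 50-base words from its transcripts.

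Groups came from the labelled treatment. The scripts were tested on simulated data. Members, lists and the rule for named genes (all members; full values for those called, the 5 most abundant and those whose groups did not overlap; of each other list, up to 4 called genes) were chosen with earlier results of these data known. Library values of Usp11, Usp12, Usp20, Usp22 and Usp40 and levels of cofactors, ubiquitin genes and markers that were not called were added after their values were seen. Alternatives were another pseudocount, 2 other filters, 2 scalings, the main transcript only, sample weights, the realigned rows and leaving out each library.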

Additional observations from a re-analysis of the deposited data

Results flagged for a closer look

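Of 92 groups of 4 libraries checked, 40 tested USP genes and 6 genes of the other lists in each treatment, 1 held a library far from the others by Dixon's criterion, where chance gives about 1 in 20. It was Usp46 in the scrambled group, with 3.21 FPKM in replicate 2 against 4.73 to 5.01 FPKM in the other 3 libraries.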

How the results depend on the processing

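With 4 libraries per group, the counts moved with single libraries, the filter and sample weights. Leaving out 1 library gave 1 to 3 USP genes higher and 2 to 7 lower, 0 to 2 USP transcript rows higher and 4 to 33 lower, and 975 to 2406 of all genes changed, against 3, 6, 2, 18 and 2010. With no filter on low values the counts were 1, 2, 0, 6 and 1012. A minimum of 5 FPKM gave 1 USP gene higher, 1 row higher and 1137 genes changed, with fewer genes tested. The most abundant transcript only gave 1 USP gene higher. Sample weights gave 15 USP genes lower, 61 rows lower and 4336 genes changed. Those USP genes included Usp5, Usp7, Usp12, Usp22, Usp36, Usp37, Usp38, Usp42, Usp48 and Usp53, reported above as not called. Median-ratio scaling and quantile normalization gave 5 and 4 rows higher. Beyond the fewer genes or samples in some of these fits, the cause was not tested. All 9 called USP genes kept their direction in every alternative that gave a value. The USP genes that turned direction were called neither with all libraries nor where they turned. Without 1 library, their log2 fold changes ran over Usp20 -0.17 to 0.20, Usp45 -0.031 to 0.17, Usp49 -0.19 to 0.032, Usp50 -0.011 to 0.21, Usp54 -0.027 to 0.36 and Usp8 -0.11 to 0.099. With sample weights they were Usp2 -0.022, Usp20 -0.18, Usp45 -0.067 and Usp8 -0.13, and with the most abundant transcript Usp50 -0.0020. Of all calls, 54.3% were higher, against 43.6% without scrambled replicate 2, 64.1% without Med13 morpholino replicate 2 and 39.5% with sample weights. No paired analysis was possible because the labels give each library a number of its own and do not say which libraries of the 2 groups belong together. The title numbers alternate between the groups, and no fit with neighbouring numbers as blocks was made. Depth is known only as library totals, and intervals for low genes cover the spread between collections.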
